A study of Danio rerio with 4 samples.

Results

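The RNA-seq comparison set a library from whole ddx39a mutant zebrafish embryos against a library from whole wild-type embryos, both collected at 24 h post fertilisation (hpf). These are 2 of the 4 libraries of the series; the other two are RNA immunoprecipitation (RIP-seq) libraries. Both members were taken by their genotype and assay labels, and 18800 of 31953 annotated genes reached 1 CPM (the usual unit of counts scaled to library size) in at least 1 of them and were compared. No transgene, drug or injection is named for either RNA-seq library, and no source used here gives the mutant allele, its zygosity, the number of embryos pooled or whether siblings served as wild type.

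The protein DDX39A belongs to the DEAD-box family of RNA helicases. Together with its near relative DDX39B it loads export adaptors such as ALYREF onto spliced mRNA as part of the TREX complex, which hands the mRNA to the nuclear pore, and it also acts in spliceosome assembly. At this stage a zebrafish embryo has a beating heart tube, segmented trunk muscle with contracting slow and fast fibres, a lens that is filling with crystallins, primitive red cells that make embryonic globins, and a yolk layer that secretes lipoproteins. A whole-embryo library mixes the RNA of all of these, so that fewer cells of a type and less RNA per cell cannot be told apart in any of the values below.

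The wild-type library held 9922182 counts in genes and the mutant library 9533101, with 23560 and 23764 genes detected. The 5 leading genes took 4.15% and 4.08% of the counts, and 53.8% and 54.0% of uniquely aligned records fell outside annotated genes. Records aligned to several places were 11.2% of all records in the wild-type library and 8.42% in the mutant library. Markers of epidermis, muscle, yolk layer, neurons, blood, lens and notochord were all counted in both libraries. There was 1 library per genotype, so no difference has a replicate check, and each interval given is a 95% exact interval for counting error alone. A gene was called when its scaled counts differed at least 2-fold and its interval excluded equality. The words "rose" and "fell" are kept for called genes and compare these libraries, not the genotypes.

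Most genes had similar levels in both libraries. The median log2 ratio of mutant over wild type was -0.0022, the quartiles were -0.23 and 0.21, and 82.8% of genes differed by less than 1.5-fold. In all, 4.76% of the genes compared were called: 406 rose, 2.16%, and 488 fell, 2.6%. Without regard to the size of the difference, the interval excluded equality for 5413 genes, 28.8% of those compared. An interval that excludes equality is therefore common in this pair. A proper gene symbol was attached to 348 of the genes that fell and to 190 of those that rose; the rest had a clone name or none.

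The balance between rise and fall changed with the level of the gene. Among 1786 genes with a mean of over 100 CPM, 22 fell and 2 rose, which is 1.23% and 0.112%. Among 4782 genes with a mean of 1 to 5 CPM, 272 fell and 248 rose, or 5.69% and 5.19%. Between these, 1.38% fell and 0.925% rose at 5 to 20 CPM, and 0.734% fell and 0.307% rose at 20 to 100 CPM. Of all genes with at least 5 CPM in either library 1.4% fell and 0.825% rose. The 2 abundant genes that rose were TFIP11, a splicing factor that acts in the disassembly of the intron lariat spliceosome, with 830 wild-type and 1809 mutant counts, and a gene with no symbol (ENSDARG00000103339) with 784 and 1679. Of the 22 that fell 8 belonged to the fast muscle sarcomere list. Others included the muscle genes pvalb1 and pvalb2 and both MYL11 genes, and also DDX39A, nme2b.2, KLHL31 and mt-nd4l. At low levels the minimum of 1 CPM bears on the direction, since a gene under it in 1 library was compared only through the other library. This held for 187 of the 406 rises and 164 of the 488 falls. In each library 10 counts were 1.03 CPM. Every called gene named below with fewer than 10 counts in 1 library was therefore compared only through the other.

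**Figure D1:**
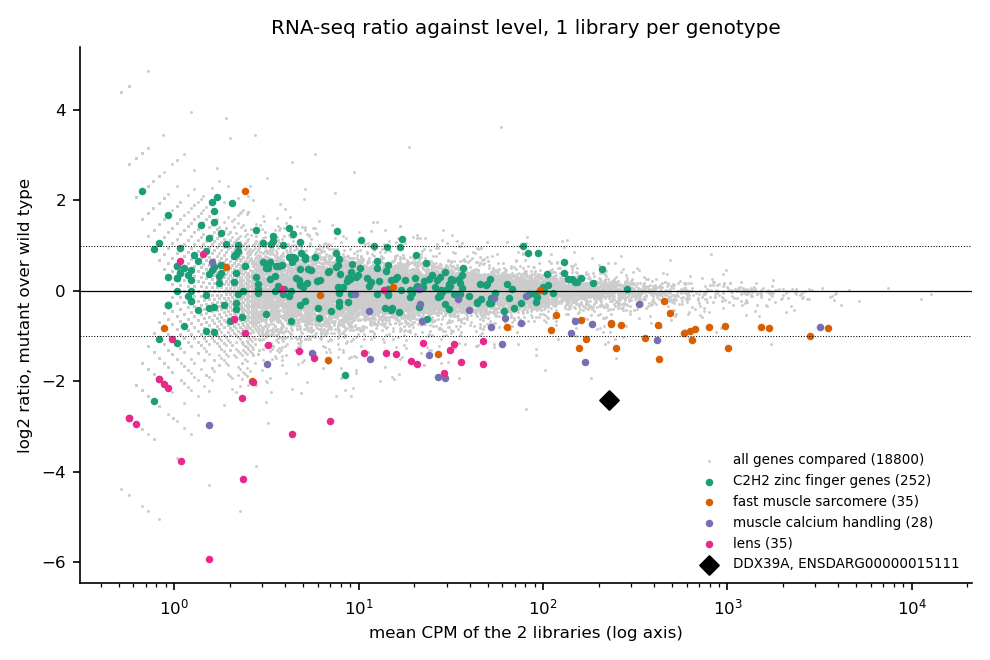
Each point is 1 gene, with its mean CPM in both libraries on a log axis and its log2 ratio of mutant over wild type on the vertical axis; dotted lines mark 2-fold. Lens genes and muscle calcium genes lie mostly below 0, C2H2 zinc finger genes of low level lie mostly above it, and the DDX39A gene ENSDARG00000015111 stands at -2.41.

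The library labelled mutant was checked first by the ddx39 genes. DDX39A is the symbol of 2 gene IDs, and neither the labels nor the symbol table tie the mutation to one of them. The gene ENSDARG00000015111 was counted 3742 times in the wild-type library and 706 in the mutant library, a fall of 5.31-fold (4.90 to 5.76). The other DDX39A gene, ENSDARG00000006225, had 2242 and 2382 counts and ddx39b had 677 and 707, so both stood within 1.1-fold of equality. The reduced transcript was still the source of 72.5 CPM in the mutant library. Among the 731 pairs of gene IDs that share a symbol and both reached 5 CPM, this pair of DDX39A genes differed most.

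Other genes of mRNA export were near equality. Of 35 measured genes of the THO/TREX and export list, 33 were not called and the median log2 ratio was 0.09. The exceptions were DDX39A and ddx19a, a helicase of the cytoplasmic face of the nuclear pore, which rose from 21 to 56 counts (2.66-fold, 1.59 to 4.63). The adaptor alyref was not called, with 5732 and 10175 counts (1.77-fold higher, 1.72 to 1.83), yet its gain of 456 CPM was larger than that of any other gene in the libraries. THOC2, a scaffold subunit of the THO complex, had 2511 and 2471 counts.

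Genes with at least 5 CPM were ranked by the bound of the interval nearest to equality. Those that fell furthest were mostly, but not only, genes of blood, lens, muscle and fin. They were led by hbae1.1 (51 and 3 counts), an alpha globin, and HBE1 (1353 and 221 counts), listed under the name of an embryonic beta globin. Next to DDX39A came crygmxl2, a gamma crystallin, MIP, the water channel of lens fibres, and and3, an actinodin of the larval fin fold. Then followed MYL11, a fast myosin light chain, and mt-atp8. After them came XIRP2, an actin-binding protein of myotendinous junctions, cavin4a, a muscle caveola protein, and CASQ1, the calcium store of the sarcoplasmic reticulum. The list closed with hbae1.3, the ciliary gene cfap70, SLC25A4 and nme2b.2. SLC25A4, a mitochondrial ADP/ATP carrier, had 424 and 112 counts (3.79-fold, 3.07 to 4.71). The nucleoside diphosphate kinase gene nme2b.2 had 1529 and 455 counts (3.37-fold, 3.03 to 3.75).

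The genes that rose furthest formed no such tissue set, and several rested on few counts. RNaseP_nuc, the RNA part of ribonuclease P, had 4 counts in the wild-type library and 49 in the mutant library. The microRNA precursor mir219-3 had 26 and 119, the pim-like kinase gene pimr93 had 9 and 53, and the ribosome biogenesis gene RRP12 had 17 and 61. The better counted ones were the Notch target her4.4 (157 and 403), the vesicle protein gene PTPRN (87 and 237), the autophagy regulator smcr8b (88 and 239), the transcriptional repressor SPEN (486 and 1108), TFIP11, the DNA-binding factor rfx5 (185 and 439), the zinc finger gene rlf (394 and 839) and pcdh8, a protocadherin of paraxial mesoderm (64 and 162). The remaining ones were MYH11, PLEKHO2 and a gene with a serial name (ENSDARG00000092402, 63 and 181 counts). Folds ran from 2.13 for rlf to 12.2 for RNaseP_nuc.

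**Figure D2:**
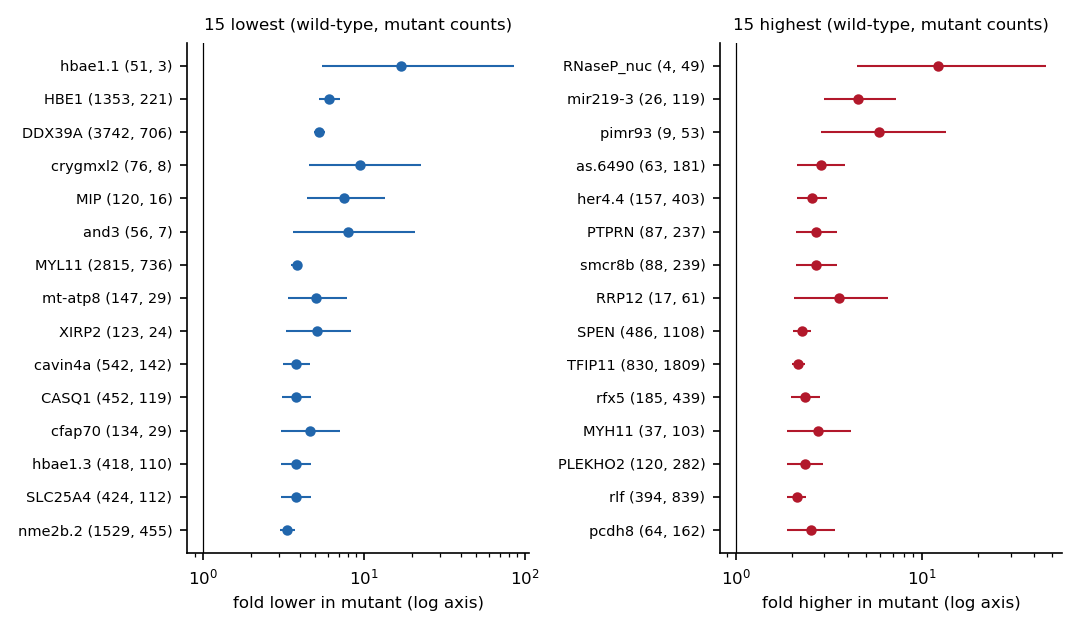
Fold difference with its 95% exact counting interval on log axes for the 15 genes with the lowest and the 15 with the highest bounds, with both counts in brackets. Intervals of hbae1.1 (5.51 to 85.3) and RNaseP_nuc (4.48 to 46.7) are wide because the smaller count is 3 or 4, while that of DDX39A runs from 4.90 to 5.76.

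The fast sarcomere held several of the most abundant genes that fell. Of 35 measured genes of the fast sarcomere, 11 fell and 1 rose, against 2.6% and 2.16% of all genes, and 31 of 35 had a ratio below 1. The median log2 ratio was -0.82. Among the myosin heavy chains, the motors of the thick filament, myhz2 had 13899 and 5764 counts (2.42-fold lower, 2.34 to 2.49) and myha had 41 and 10. Another heavy chain, myhz1.3, had 36490 and 18174 counts (2.01-fold lower, 1.98 to 2.05), a call that ended with total-count scaling. Only myhb, a further heavy chain, rose, from 8 to 39 counts (4.87-fold, 2.24 to 12.1). Copies of these tandem myosin genes are near-identical and can exchange reads, so single values are uncertain.

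The other parts of the fast sarcomere were lower too. A titin gene (TTN, ENSDARG00000000563), whose product spans the sarcomere as a spring, had 6143 and 2168 counts and fell 2.84-fold (2.7 to 2.98). One TNNT3 gene (ENSDARG00000068457), for the troponin that anchors the regulatory complex on the thin filament, fell 2.42-fold with 3436 and 1423 counts. The myosin-binding protein gene mybpc2b fell 2.39-fold and the Z-disc gene myoz1b 2.65-fold. Abundant members without a call were actc1b, a thin-filament actin, with 43589 and 24683 counts (1.77-fold lower, 1.74 to 1.80), and myhz1.1 with 20901 and 11838 (1.77-fold lower, 1.73 to 1.81). Among the other abundant members without a call, ratios ran from 1.71-fold lower for the troponin gene TNNC2 to 1.90-fold lower for myhz1.2.

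The muscle calcium list, which is not limited to fast fibres, stood in the same range. Of 28 measured genes of excitation and calcium handling 10 fell and none rose, and the median was -0.73. The voltage sensor gene CACNA1S (ENSDARG00000029457) had 166 and 58 counts, the channel subunit gene CACNG1 had 341 and 128, and the release channel gene RYR1 (ENSDARG00000011422) had 803 and 358. On the storage and buffering side, CASQ1 (ENSDARG00000038716) fell from 452 to 119 counts (3.8-fold, 3.10 to 4.70), pvalb4 from 411 to 110 (3.74-fold, 3.03 to 4.66) and pvalb1 from 2451 to 825 (2.98-fold, 2.75 to 3.22). Parvalbumins bind calcium in the cytoplasm of fast fibres. The calcium pump gene atp2a1l had 27 and 3 counts, and its abundant relative atp2a1 was not called at 39246 and 22539 counts (1.74-fold lower, 1.72 to 1.77). SRL, a calcium-binding protein of the reticulum, had 3548 and 2915.

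At the muscle membrane a minority of genes fell. Of 25 measured genes of caveolae and costameres, the membrane pits and the anchors between membrane and sarcomere, 4 fell and none rose, with a median of -0.29. XIRP2 (ENSDARG00000091090) had 123 and 24 counts, cavin4a 542 and 142, the muscle caveolin gene cav3 990 and 436, and CAVIN1 (ENSDARG00000076411) 134 and 49. The most abundant members differed little: the dystroglycan gene DAG1 had 2718 and 3043 counts and FLNC, a filamin, 2702 and 3127. The second cavin4 gene, cavin4b, had 1824 and 1364 counts and was not called.

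Genes of muscle energy metabolism summed to 5767 CPM in the wild-type library and 3819 in the mutant library. Of 23 measured 3 fell and none rose, with a median of -0.46. Both PFKM genes, for the rate-setting phosphofructokinase of glycolysis, fell, from 123 to 32 counts (ENSDARG00000014179, 3.85-fold, 2.59 to 5.87) and from 241 to 84 (ENSDARG00000060797, 2.87-fold, 2.23 to 3.73). CKMT2, a mitochondrial creatine kinase, fell from 48 to 23. The cytoplasmic creatine kinases were not called, with 19328 and 11046 counts for ckmb (1.75-fold lower, 1.71 to 1.79) and 11054 and 5849 for ckma. In the glycolysis list as a whole, 4 of 34 fell, GPI (ENSDARG00000103826, 322 and 136 counts) and SLC16A3 besides the PFKM genes.

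The receptor of the neuromuscular junction showed both directions. Of 14 measured genes 2 rose and 2 fell. CHRNG, the gene of the embryonic gamma subunit of the acetylcholine receptor, rose from 228 to 478 counts (2.09-fold, 1.78 to 2.46), while CHRNE, for the epsilon subunit that in mammals replaces gamma, fell from 372 to 159 (2.34-fold, 1.94 to 2.84). COLQ, which tethers acetylcholinesterase in the cleft, fell from 115 to 45, and CHAT, which makes acetylcholine, rose from 10 to 25. The shared subunit gene CHRNA1 had 622 and 521 counts, and AGRN, the nerve-derived organiser of the junction, 1331 and 1133.

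The lists of slow fibres, heart and myogenic regulators had medians nearer equality than the fast sarcomere list, but single members differed more. Of 19 measured slow sarcomere genes 2 fell, tnnt2d (232 and 62 counts, 3.75-fold, 2.82 to 5.04) and myoz3a (81 and 39), while the slow myosin gene smyhc1 had 11843 and 11300. The troponin gene tnnt2c was not called at 5365 and 3107 counts (1.73-fold lower, 1.65 to 1.81), and PROX1 was higher with 290 and 373. Among 30 heart genes nppa, the atrial natriuretic peptide gene (31 and 5 counts), and cmlc1, a cardiac light chain (238 and 103), fell, and myh7bb rose from 512 to 1063 (2.07-fold, 1.86 to 2.31). The heart median was 0.01, over a list that mixes contractile genes and transcription factors. Among contractile genes without a call, myh6 (ENSDARG00000090637, 187 and 96 counts) was 1.95-fold lower (1.52 to 2.52). In the other direction, myh7ba (96 and 174) was 1.81-fold higher (1.40 to 2.35). Of 27 myogenic regulators and fusion genes, tbx16 rose from 25 to 58 counts, none fell, and the median was 0.18. Among 24 chaperones and assembly factors of the sarcomere the lone call was KBTBD12 (44 and 10), and the median was -0.04. UNC45B, the myosin chaperone, had 2601 and 2663 counts. Both SMYD1 genes were lower without a call, with 2511 and 1431 counts (ENSDARG00000091253, 1.76-fold, 1.65 to 1.88) and 434 and 241 (ENSDARG00000009280). KLHL41 (ENSDARG00000006757) had 2655 and 1875, while BAG3 was higher with 334 and 421. The difference in the medians of the fast sarcomere and slow sarcomere lists, -0.82 against -0.26, has no test here.

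In absolute terms the muscle genes carried much of the RNA that was lower. Summed over the fast sarcomere list, the level was 24430 CPM in the wild-type library and 13325 in the mutant library, 1.83-fold lower. The calcium list went from 6613 to 3817 CPM. Among all genes with less CPM in the mutant library, the fast sarcomere list held 12.9% of the summed shortfall, and the fast, slow, calcium and energy lists together held 19.2%. With human-style symbols added, 40 fast sarcomere genes were measured in place of 35. The sums and shares of the fast list thus leave some members out. The largest single losses were those of actc1b, myhz1.3, atp2a1, the MYL11 gene ENSDARG00000053254 (23279 and 10309 counts, 2.26-fold lower, 2.21 to 2.31) and eef1a1l1, a translation factor whose ratio was 1.13-fold lower on 115891 and 103081 counts. Loss and gain in CPM depend on the scaling, since TMM factors of 0.979 and 1.02 make the summed CPM of the libraries unequal.

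**Figure D3:**
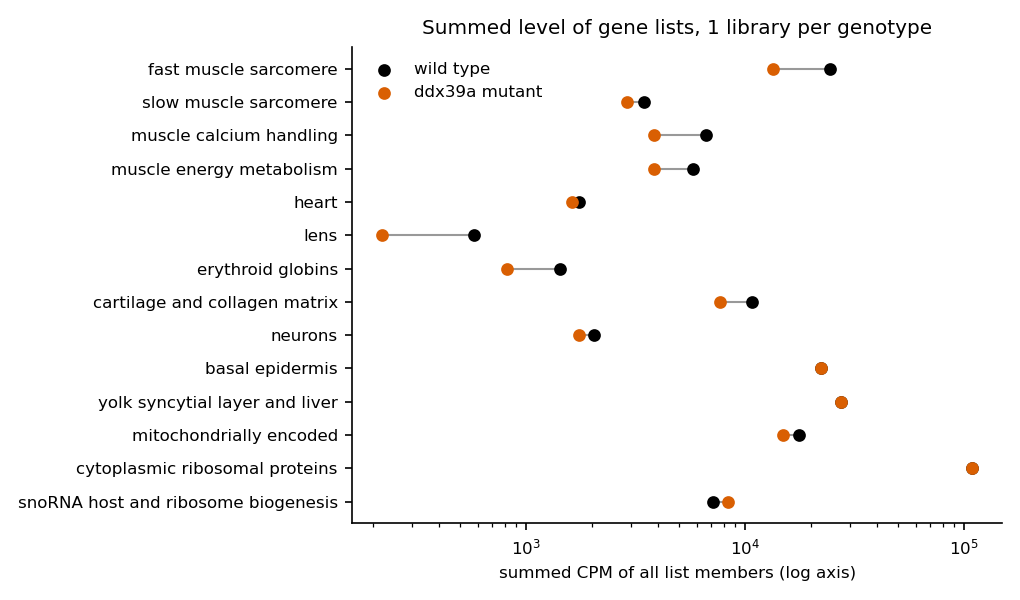
Summed CPM of all members of 14 gene lists in the wild-type (black) and mutant (orange) library on a log axis, without correction for gene length. Fast muscle (24430 and 13325 CPM), lens (574 and 219) and globins (1431 and 814) are apart, whereas epidermis (22273 and 22103), yolk layer and ribosomal proteins overlap.

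The lens list had the lowest median of all 74 lists. Of 35 measured genes 28 fell and none rose, with a median log2 ratio of -1.54, and with at least 5 CPM 16 of 17 fell. Of the 28, 11 were under 1 CPM in the mutant library and were compared only through the wild-type library. The beta crystallin genes with the most counts, for structural proteins of lens fibres, fell by 2.17-fold to 3.54-fold. The gene crybb1l2 had 690 and 225 counts (3.07-fold, 2.64 to 3.59), CRYBB1 had 627 and 289 (2.17-fold, 1.89 to 2.51), crybb1l1 had 525 and 175 (3.0-fold, 2.53 to 3.59) and cryba1b had 438 and 124 (3.54-fold, 2.89 to 4.35). Gamma crystallins, which pack the fibre core, were fewer in counts and further apart. The gene crygmxl2 had 76 and 8 counts (9.51-fold, 4.59 to 22.8), crygm2d10 had 44 and 2 (22.0-fold, 5.75 to 188), crygm2d20 had 20 and 1, and crygm2d12 had 30 and 0, at least 10.02-fold lower against a floor of 3 counts. Members of this gamma family are near-identical, so reads may be assigned to the wrong copy.

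Other lens fibre genes fell with the crystallins. Both MIP genes did, from 120 to 16 counts (ENSDARG00000013963, 7.51-fold, 4.44 to 13.6) and from 304 to 99 (ENSDARG00000037285, 3.08-fold, 2.44 to 3.90). So did the connexin gene GJA3 (13 and 3) and the lens membrane gene LIM2 (151 and 58). The 7 members without a call were the transcription factors pitx3 (133 and 135 counts), foxe3 (37 and 38) and MAF (25 and 16), the filament genes BFSP1 (31 and 16) and BFSP2 (13 and 6), CRYBB3 (10 and 18) and LCTL (8 and 13). Several of these counts are too low to resolve a 2-fold difference.

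The factors that specify lens and eye were at similar levels in both libraries. Of 29 measured, MAFA, a basic leucine zipper factor of the crystallin-activating Maf family, rose from 225 to 452 counts (2.01-fold, 1.71 to 2.36), and none fell. The median was -0.04. The most abundant members were SOX3 (2154 and 2568), MEIS2 (1243 and 1000) and SOX2 (1242 and 1214). In the retinal list of 20 genes, POU4F2 of ganglion cells fell from 28 to 12 counts and an RPE65 gene of the pigment epithelium (ENSDARG00000007480) rose from 13 to 28. No otic gene was called among 29.

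Red cell genes divided between globins and the rest. Of 7 measured globin genes in the list 3 fell, hbae1.1 (51 and 3 counts, 17.0-fold, 5.51 to 85.3), hbae1.3 (418 and 110, 3.81-fold, 3.08 to 4.74) and hbae4 (81 and 31, 2.62-fold, 1.71 to 4.1), and all 7 had a ratio below 1. The most abundant ones were not called: hbae3 had 7370 and 4020 counts (1.84-fold lower, 1.77 to 1.91) and hbbe3 had 4625 and 2846. Both genes listed as HBE1 fell, ENSDARG00000087390 from 1353 to 221 (6.13-fold, 5.31 to 7.10) and ENSDARG00000045143 from 183 to 83. Globin genes lie in clusters of similar copies and can exchange reads.

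Among 37 genes of heme synthesis and the red cell membrane the median was -0.14. SLC4A1, the anion exchanger of the red cell (ENSDARG00000012881), fell from 1292 to 486 counts (2.66-fold, 2.4 to 2.96) and hemgn, a nuclear protein of erythroblasts, from 157 to 77. SLC25A37, which brings iron into mitochondria for heme, rose from 90 to 195 (2.16-fold, 1.68 to 2.81). The heme enzyme gene UROD had 958 and 705 counts and the spectrin gene SPTB 1609 and 1335. Among 29 genes of leukocytes and blood progenitors, MPEG1 of macrophages (40 and 13 counts) and npsn (111 and 40), a protease gene also in the hatching gland list, fell.

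Matrix genes mostly had ratios below 1, but by less than 2-fold. Of 37 measured genes of cartilage and collagen matrix 32 had a ratio below 1 and the median was -0.40, with a lone call for a POSTN gene at 14 and 3 counts. The fibrillar collagen genes col1a1a (17181 and 11742 counts, 1.47-fold lower, 1.43 to 1.5), COL2A1 (ENSDARG00000069093, 11507 and 6527, 1.77-fold lower, 1.71 to 1.82) and COL1A2 (8928 and 6461, 1.38-fold lower, 1.34 to 1.43) were its most abundant members. The list summed to 10692 CPM in the wild-type library and 7681 in the mutant library. In the notochord list, which shares COL2A1 and CAVIN1, the median was -0.14 and CAVIN1 was the lone call among 32.

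In the fin fold, and3 fell from 56 to 7 counts (8.01-fold, 3.64 to 20.8) and hoxa13a, a factor of the distal fin, from 63 to 31 (2.04-fold, 1.3 to 3.24). Actinodins form the fibres that hold the larval fin fold. The other 23 of 25 measured fin fold genes were not called, and their list had a median of -0.30. They include 2 actinodin genes with more counts than and3, both lower by just under 2-fold with intervals that excluded equality. The gene and1 had 404 and 213 counts (1.9-fold lower), while and2 had 227 and 115 (1.98-fold lower). The keratin genes of the surrounding epidermis were level: none of 37 epidermal genes was called, and krt4, with 127338 and 121390 counts, was 1.05-fold lower (1.04 to 1.06).

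**Figure D4:**
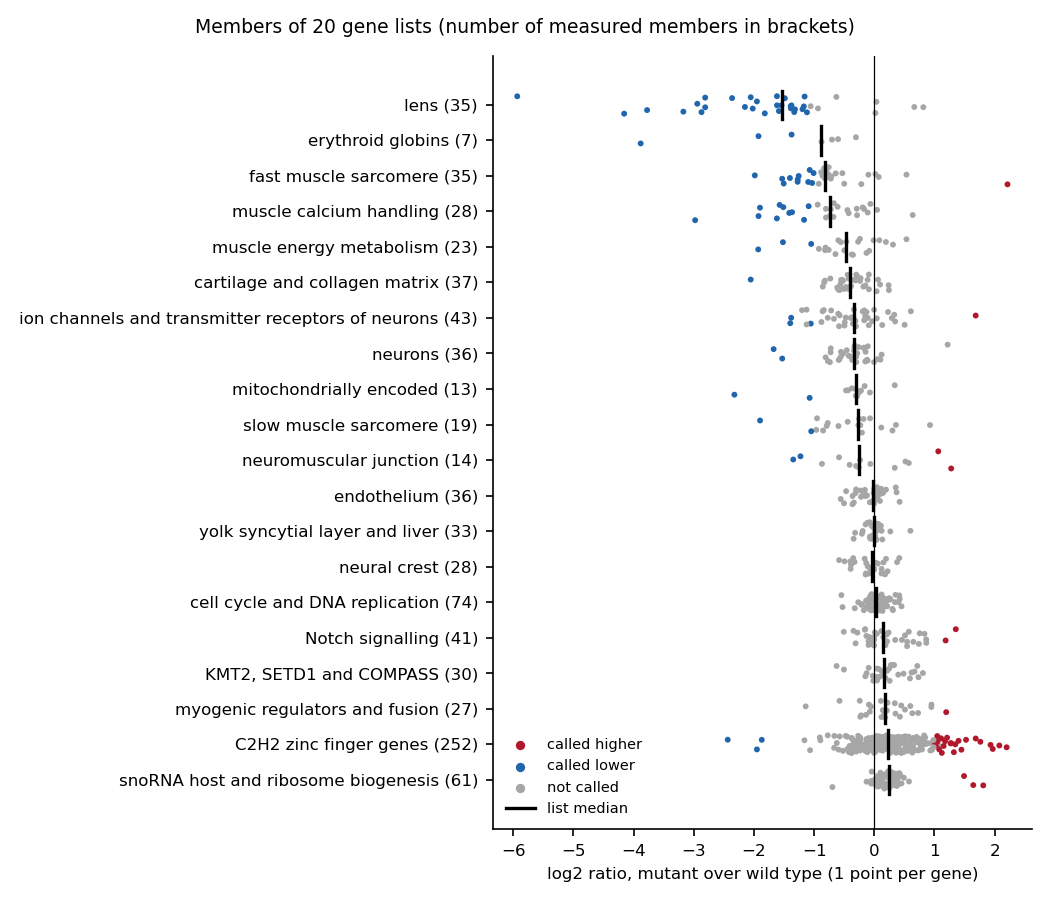
Log2 ratio of every measured member of 20 gene lists, 1 point per gene, with called genes in red (higher) or blue (lower) and the list median as a black bar. Lens (median -1.54), globins (-0.88), fast muscle (-0.82) and muscle calcium handling (-0.73) lie to the left of 0, endothelium and yolk layer are centred on it, and zinc finger (0.23) and ribosome biogenesis genes (0.25) lie to its right.

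In the nervous system, genes of mature neurons mostly had ratios below 1. Of 36 measured neuronal genes 32 had a ratio below 1 and the median was -0.33. The neurofilament genes NEFL (24 and 8 counts) and nefla (17 and 5) fell, and tubb5, a neuronal tubulin, was 1.23-fold lower on 2942 and 2394 counts. Both neurofilament genes were under 1 CPM in the mutant library and were compared only through the wild-type library. Of 43 genes of ion channels and transmitter receptors 34 had a ratio below 1, with a median of -0.34. There 3 genes fell, among them glra4a, a glycine receptor gene, from 77 to 29 counts (2.66-fold, 1.71 to 4.23), while the glycine receptor gene GLRA1 rose from 4 to 14. GLRA1 was under 1 CPM in the wild-type library and was compared only through the mutant library.

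Regional patterning genes held few calls, but with 4.76% of all genes called, lists of this length would hold few in any case. No member was called among 32 midbrain and hindbrain genes, where the median was -0.01. In the forebrain list of 25, an OTP gene for a factor of neuroendocrine hypothalamic neurons (ENSDARG00000014201) fell from 201 to 96 counts (2.1-fold, 1.64 to 2.7). The median of that list was -0.14, with 17 of 25 ratios below 1. Of 31 spinal cord genes EVX1 fell (19 and 7 counts) and CHAT rose, with a median of -0.15. In the progenitor list of 38 genes the call was for her4.4, which rose from 157 to 403 counts (2.56-fold, 2.13 to 3.10), and NOTCH3 had 4304 and 4213.

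Notch genes and the genes of the unsegmented mesoderm held a few of the higher calls, where 2.16% of all genes rose. Of 41 Notch pathway genes her4.4 and SPEN (ENSDARG00000074245, 486 and 1108 counts, 2.28-fold, 2.04 to 2.54) rose and none fell, with a median of 0.15. SPEN is known from mammals as a corepressor that binds the Notch effector RBPJ. The members above 1.5-fold higher without a call included her4.2 (298 and 533), her4.5 (224 and 409) and her2 (289 and 527), all transcriptional repressors that Notch induces, and near-identical her4 copies can exchange reads. In the list of presomitic mesoderm and segmentation clock, 3 of 35 genes rose, pcdh8 (64 and 162 counts, 2.53-fold, 1.88 to 3.43), tbx16 (25 and 58) and the clock gene her11 (5 and 15), and EVX1 fell. Of these, her11 was compared only through the mutant library and EVX1 only through the wild-type library. No member was called among 53 Wnt, 31 FGF and 29 retinoic acid pathway genes, where 4.76% of all genes were called.

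Many lists held few or no called genes. Of 74 lists 26 had none, 11 of them among the 39 tissue lists; with 4.76% of all genes called, a list of this length would hold few calls in any case. In 53 of the 69 tissue and process lists the median was within 0.2 of 0 on the log2 scale. Lists without a call included neural crest (28 genes, median -0.04), pigment cells (26), endothelium (36), ionocytes (15) and the yolk layer and liver (33, median 0.00). The yolk layer's apolipoprotein gene apobb.1 had 70575 and 73368 counts and apoa1b had 27813 and 28149. None of 74 genes of cell cycle and DNA replication was called, and their median was 0.03. PCNA, the sliding clamp of replication, had 8216 and 8957 counts. Single members differed more in both directions. The gene mki67 (6024 and 4132) was 1.46-fold lower (1.40 to 1.52) and CENPF (2558 and 3419) was 1.33-fold higher (1.27 to 1.41). None of 43 genes of apoptosis and its regulation was called either.

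C2H2 zinc finger genes, which mostly encode DNA-binding proteins, were the list with the most measured genes and had more rises than falls. Of 252 measured 24 rose and 3 fell, against 2.16% and 2.6% of all genes, 172 had a ratio above 1, and the median was 0.23. Many belong to clusters that expanded in fish. The 6 with the highest bounds were znf1178 (6 and 27 counts, 4.49-fold, 1.82 to 13.3), znf1172 (8 and 32), znf1014 (103 and 230, 2.23-fold, 1.76 to 2.84), znf1003 (42 and 106, 2.52-fold, 1.75 to 3.69), ZBTB47 (6 and 25) and znf1183 (22 and 59). A fall was called for zbtb4 (129 and 35 counts), znf1044 (13 and 2) and znf1122 (13 and 3).

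Of the 24 rises 9 were of genes under 1 CPM in the wild-type library, compared only through the mutant library. Most rises lay in genes of low level. Among members with a mean of 1 to 5 CPM, 19 of 101 rose and none fell, where 5.19% of all genes of that level rose. Above 20 CPM no member was called in either direction. Of the 117 genes whose znf number is 900 or more, a split chosen after the values were seen, 20 rose and 2 fell, whereas of 99 with a lower number 2 rose. At a mean of 1 to 20 CPM, 73.1% of the genes numbered 900 or more had a ratio above 1, against 47.2% of all genes. Near-identical copies of these genes can exchange reads, and the share of multiply aligned records differed between the libraries, 11.2% and 8.42%; the part of this in the zinc finger values was not tested.

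**Figure D5:**
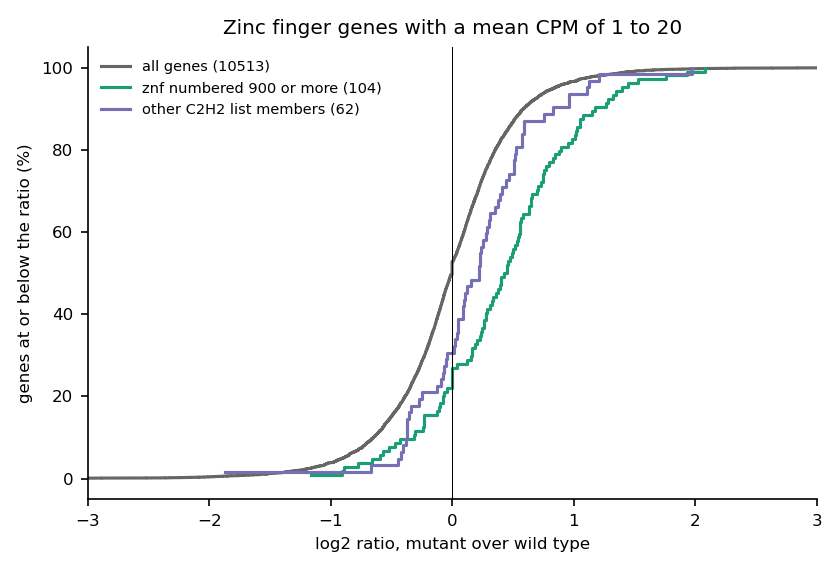
Cumulative share of genes at or below each log2 ratio, for genes with a mean of 1 to 20 CPM. The curve of 104 zinc finger genes numbered 900 or more (median 0.44) runs to the right of that of 62 other members of the list (0.22) and of 10513 genes of that level (-0.0022).

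Genes of ribosome assembly leaned higher by small amounts. Of 61 measured genes of the nucleolus and ribosome biogenesis 55 had a ratio above 1, and the median was 0.25. RRP12, an export factor of ribosomal subunits, rose from 17 to 61 counts (3.58-fold, 2.07 to 6.54), RRP9, a protein of the U3 particle, from 7 to 23 and rrp7a from 5 to 15, the last 2 compared only through the mutant library. The abundant nucleolar genes were below the size of a call: ncl had 15796 and 18641 counts (1.18-fold higher, 1.15 to 1.2), NOP56 4361 and 4864, and npm1a 3752 and 4918 (1.31-fold higher, 1.25 to 1.37). Ribosomal protein genes were level, with none of 79 called, a median of -0.01, and 38120 and 36899 counts for RPS2.

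RNA processing proteins were mostly level. In the spliceosome list of 81 genes TFIP11 (830 and 1809 counts, 2.18-fold, 2.0 to 2.37) rose, none fell, and the median was 0.08. PRPF8, the scaffold of the spliceosome core, had 5388 and 5412 counts. None of 95 SR protein and splicing regulator genes and none of 44 genes of exon junction, mRNA decay and exosome was called. KMT2 and SETD1 histone methyltransferases and their partners had no call among 30 but 23 ratios above 1.

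Small RNA genes are poorly measured in a poly(A) library, yet several differed. RNaseP_nuc (4 and 49 counts, 12.2-fold, 4.48 to 46.7) and rpph1 (2 and 35, 17.5-fold, 4.49 to 150) both stand for the RNA of ribonuclease P, and both rose. Both were under 1 CPM in the wild-type library and were compared only through the mutant library. They were the calls among 10 measured of 875 annotated small nuclear and nucleolar RNA genes. Of 269 microRNA precursor genes 9 were measured. Among them mir219-3 (26 and 119 counts) and dre-mir-133c (8 and 25) rose. Falls were called for mir16b (31 and 12), MIR363 (15 and 4), mir153c (16 and 0) and MIR206 (11 and 0). Of these 4, 3 were compared only through the wild-type library. Counts on a precursor may come from its host transcript, and do not measure the mature microRNA. In the pim-like kinase family 5 of 108 annotated genes were measured, and 4 of them passed the minimum only through the mutant library, so their direction was set by it. They include pimr93 (9 and 53), pimr55 (6 and 19) and pimr94 (6 and 18), which are near-identical copies.

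Histone genes had a median of -0.84 over 11 measured genes. A gene listed as h2ax (ENSDARG00000029406) fell from 251 to 70 counts (3.59-fold, 2.75 to 4.75) and hist2h3c from 40 to 9. The replacement histones of the H3.3 kind, whose mRNAs are polyadenylated, had 10111 and 8863 counts for h3f3a and 8515 and 8547 for h3f3d. Replication-dependent histone mRNAs lack a poly(A) tail, so an oligo(dT) library records them incompletely. With at least 5 CPM required, the median of the remaining 9 genes was -0.28.

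The calls among stress genes were all for inducible heat shock 70 genes. Of 56 measured genes of heat shock and unfolded protein response 3 rose, hsp70.3 (123 and 279 counts, 2.26-fold, 1.83 to 2.82), hsp70l (20 and 63, 3.15-fold, 1.88 to 5.49) and hspa1b (5 and 19), none fell, and the median was -0.06. Their constitutive relative HSPA8 had 37253 and 34515 counts. The 3 inducible genes are close copies. None of 22 interferon and innate immune genes was called.

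Of 13 mitochondrially encoded genes 12 had a ratio below 1, with a median of -0.31. There mt-atp8 (147 and 29 counts, 5.08-fold, 3.39 to 7.84) and mt-nd4l (1579 and 751, 2.11-fold, 1.93 to 2.3), both short subunit genes, fell. MT-CO1, the catalytic subunit of cytochrome oxidase, had 53936 and 46377 counts (1.16-fold lower, 1.15 to 1.18). These short genes overlap neighbouring subunit genes, and reads in an overlap may be left uncounted. None of the 100 nuclear-encoded respiratory chain genes was called, and their median was -0.09. SLC25A4 was the furthest of 3 carriers that fell among 50, while SLC25A5 had 28600 and 25423 counts.

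Gene copies that share a symbol mostly had similar ratios. In 26 of the 731 pairs with at least 5 CPM in each gene 1 copy was called and the other was not, 22 times as a fall and 4 times as a rise. Of all genes with at least 5 CPM in either library, 1.4% fell and 0.825% rose, so few pairs would hold a call in any case. In 8 pairs both copies moved the same way, among them MIP and HBE1, and in none did they move in opposite directions. After DDX39A the widest gaps belonged to XIRP2, where ENSDARG00000091090 fell 5.13-fold and ENSDARG00000071113 had 1134 and 929 counts, and to MYH11, where ENSDARG00000100972 rose from 37 to 103 counts (2.78-fold, 1.89 to 4.16) and ENSDARG00000009782 had 52 and 35. SLC4A1 was next, its second gene ENSDARG00000024560 standing at 108 and 145 counts. The median gap over all pairs was 0.22 on the log2 scale. No gap between unrelated genes was computed, and most genes were near equality.

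Few genes were counted in 1 library alone. Of the genes compared 6 had no count in the mutant library and 8 none in the wild-type library. Besides crygm2d12, mir153c and MIR206 the former were cyp2k18 (14 wild-type counts, at least 4.67-fold lower against the floor), krt98 (13) and lgals3bp.1 (10). Of the latter, dicp1.1 and MICALL1 have a symbol, with 11 mutant counts each (at least 3.66-fold higher).

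The RIP-seq pair offers a second readout of the same genes. Its protocol text has mutant embryos injected with ddx39a-Flag mRNA as the source of both libraries, while their genotype labels differ, so they are named by label. The 5 leading genes took 75.5% and 69.5% of their gene counts, which leaves few counts for most genes. By the same rule, 8.11% of 15762 genes rose and 5.3% fell in the library labelled mutant. Of the 185 genes that rose in RNA-seq and were compared in RIP-seq, 21 rose there too, which is 11.4% of them and 1.66% of the RIP-seq rises, and 3 fell. Of 212 genes that fell in RNA-seq 21 also fell in RIP-seq, 9.91% of them and 2.59% of the RIP-seq falls, and 7 rose. The median RIP-seq log2 ratio was -0.67 for the genes that fell in RNA-seq and 0.07 for those that rose. Over the 15095 genes compared in both pairs it was -0.05.

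The RIP-seq counts of genes with calls in both pairs were often low, and their direction differed by gene. SPEN had 29 and 304 RIP-seq counts (8.55-fold higher with the mutant label, 5.84 to 12.99), myh7bb 13 and 157, and pcdh8 11 and 70, each a rise in RNA-seq as well. HBE1 (ENSDARG00000087390) had 13 and 2 and the MYL11 gene ENSDARG00000053254 had 273 and 156, falls in both. In contrast, the TTN gene ENSDARG00000000563 fell in RNA-seq and had 1921 and 9280 RIP-seq counts (3.94-fold higher, 3.75 to 4.14), and RYR1 (ENSDARG00000011422) had 42 and 417. RNaseP_nuc rose in RNA-seq and had 39 and 20 RIP-seq counts (2.39-fold lower, 1.36 to 4.32). These genes were picked from the overlap after their values were seen.

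Genes next to the ddx39 loci were examined by their order in a newer RefSeq gene table. Against 2.16% of all genes higher and 2.6% lower, of 27 measured neighbours within 25 genes of ddx39aa 1 rose and 2 fell, and of 32 around ddx39b none was called. Around ddx39ab 15 of the 50 neighbours could be matched by symbol and 9 were measured. These 9 are few, and the last of the rises named next was compared only through the mutant library. Among them, zc3h7ba (43 and 88 counts), trim35-7 (41 and 86) and the clone-named si:ch73-59f11.3 (2 and 11) rose, and CYGB, a globin-family oxygen carrier, fell from 470 to 211 counts (2.23-fold, 1.89 to 2.64).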

How the data were processed

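Whole-embryo RNA was extracted with Trizol and poly(A) RNA was selected with oligo(dT) beads for a TruSeq kit, per the labels' protocols. HTSeq 0.6.1p1, TopHat2 2.2.1 with Bowtie2 2.2.3, FastQC 0.11.5 and bcl2fastq are named, along with build GRCz10, per the submitters' processing notes. The deposited values are raw counts per gene, not normalized, and no source used here gives the strand setting, so reads of a gene and of its antisense or overlapping partner cannot be told apart. The 5 summary entries per file were left out of the library sizes.

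Counts were scaled by TMM (edgeR 4.0.16 in R 4.3.3, factors 0.979 and 1.02), and CPM is not corrected for gene length. Genes with at least 1 CPM in either library were compared. A fold is the ratio of scaled counts, a log2 ratio has a prior count of 0.5, and the interval is the 95% exact conditional binomial (Clopper-Pearson) interval of that ratio. It covers counting error only, since no molecular identifiers are named, and does not measure variation between embryos. A fold against 0 used 3 counts per library as the floor, 0.309 CPM in the wild-type library and 0.308 in the mutant library. With 1 library per genotype no p-value was computed. Calls need a 2-fold ratio and an interval that excludes equality. The calling was tested on simulated counts with counting error only, with 3-fold changes planted in genes of at least 5 CPM. That simulation could not show variation between embryos or libraries, nor the recovery of changes at lower levels.

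Symbols came from a gene name table, which matched 26121 of 31953 IDs, and list symbols were matched without regard to case and then without the paralog suffix. The members and lists were chosen with earlier results of these data known. Genes named were the 15 with the highest and the 15 with the lowest fold by the bound nearest to equality, among genes with at least 5 CPM in either library, the 10 largest gains and losses in CPM, and, for each list described, up to 6 called members by the same bound and its 3 most abundant members; not all of these are printed, and some genes are not reported here. Other genes, the split of zinc finger genes by number, the pairs of shared symbols and the RIP-seq examples were chosen after their values were seen. Neighbours were ordered by the RefSeq gene table of assembly GRCz12tu. Alternatives were other scalings (total counts, upper quartile, DESeq2 1.42.0), other minimum levels and other fold thresholds. Python 3.11.15, numpy 2.4.6, pandas 2.3.3, scipy 1.17.1 and matplotlib 3.10.9 were used.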

Additional observations from a re-analysis of the deposited data

How the results depend on the processing

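The counts of called genes followed the thresholds. The main counts were 406 rises and 488 falls. With at least 5 CPM they were 114 and 194, with a 4-fold threshold 92 and 112, with a 1.5-fold threshold 826 and 1076, and with the whole interval beyond 2-fold 43 and 110. They were 437 and 542 with no minimum level, 406 and 485 with DESeq2 size factors, 419 and 467 with upper-quartile scaling, and 472 and 423 with total counts. Total counts shifted the median log2 ratio of all genes by 0.06. With that scaling the C2H2 zinc finger median was 0.29 against 0.23, 10 other list medians moved by the same shift, and the call for myhz1.3 ended at a log2 ratio of -0.95. With 50 neighbours on each side, 5 genes were called around ddx39aa and 1 around ddx39b. The microRNA precursor median changed sign, from -0.83 to 2.17 with at least 5 CPM, where 1 gene was left. The other list medians that changed sign lay within 0.24 of 0 in every setting run, and none of the named genes with a log2 ratio in these settings changed the direction of its call. With human-style symbols added, an alternative chosen after seeing the data, the fast sarcomere median stayed at -0.82 with 14 of 40 genes lower, and the globin median went from -0.88 to -1.14 with 5 of 9 lower. No paired analysis was possible because each genotype had 1 library. The relation of the ratio to protein length, and its alternative with at least 5 CPM, were not run, and protein sequences were not analysed here. Depth limits the genes of low level: at a mean of 1 to 5 CPM the quartiles of the log2 ratio were -0.44 and 0.39, against -0.13 and 0.09 above 100 CPM.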
